A study of Mus musculus with 7 samples.

Results

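Mouse miRNAs are numbered in the order in which they were registered, so those with a number of 1000 or higher are mostly late additions that came out of deep sequencing. All rows of the deposited expression table whose name holds such a number were taken, with any letter or arm suffix, which gave 320 of 820 miRNAs (39.0%). The other 500 are let-7 and miRNAs with lower numbers. The level of a miRNA is given in rpm, its reads per 1000000 miRNA reads of the library. The rule reads the names alone, but the table lists only miRNAs with at least 1 read in these libraries.

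The RNA came from extracellular vesicles, the membrane particles that cells shed, which were isolated from epididymal white fat. All mice were male, lacked ApoE (ApoE-/-, a background in which a fatty diet leads to atherosclerosis), and carried the same batch label. Their age is given as 8 weeks, and the high-fat diet lasted 12 weeks before the fat was taken. The HFD group (n = 4 libraries) had the diet alone, and the HFD+Ni group (n = 3) had nicotine at 2 mg/kg/day as well. The design compares the vesicle miRNAs of these groups. The labels do not say whether a library came from 1 animal or a pool, nor which cells of the fat pad shed the vesicles, and p-values measure the spread between these samples, part of which may be technical.

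A mature miRNA is cut from a hairpin and pairs with target mRNAs mainly through its seed, bases 2 to 8. Classical hairpins are cut out of long transcripts by the enzyme Drosha. Many late additions arise in other ways: mirtrons are short introns that form a hairpin once they are spliced out, and some miRNAs are cut from small nuclear or nucleolar guide RNAs. Others lie in repeats, whose sequence stands in many transcripts. The rows of an expression table do not separate a processed miRNA from a fragment of such a longer RNA.

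RefSeq (GRCm38.p6) gave a mature sequence for 279 of the 320 high-numbered miRNAs and for 417 of the other 500. The sequences of the miRNAs that carry the results follow, 5′ to 3′, with the seed in capitals. The first include miR-3473b and miR-3473e, both among the 3 most abundant, which have the same seed and the same 18 first bases. The sequences of miR-3473b and miR-3470b recur in many transcripts. miR-3473f, which has another seed, and miR-1195 are listed with them as named members, and neither recurs in that way:
miR-3473b: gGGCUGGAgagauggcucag
miR-3473e: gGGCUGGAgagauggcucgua
miR-3473f: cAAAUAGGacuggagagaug
miR-3470b: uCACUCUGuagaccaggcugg
miR-1195: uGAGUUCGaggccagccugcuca

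The next overlap guide RNAs of the Cajal body (scaRNAs), and a shift of 1 base gives miR-1843a-5p and miR-1843b-5p different seeds although they share a stretch of 20 bases:
miR-1843a-5p: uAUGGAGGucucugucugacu
miR-1843b-5p: aUGGAGGUcucugucugacuu
miR-1843a-3p: uCUGAUCGuucaccuccauaca
miR-1843b-3p: cCGAUCGUuccccuccauac
miR-1839-5p: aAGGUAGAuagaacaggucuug

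The last are the other abundant ones with a RefSeq entry, of which miR-1981-5p lies in a hairpin that spans an intron and miR-6538 is 94.7% G and C:
miR-1981-5p: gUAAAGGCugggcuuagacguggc
miR-1198-5p: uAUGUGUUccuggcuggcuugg
miR-6538: cGCGGGCUccggggcggcg
miR-3154: cAGAAGGGgagucgggagcgga

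The libraries held 53626 to 1055902 miRNA reads, and HFD replicate 2 was the deepest, 19.7-fold above HFD+Ni replicate 1. Of the markers of fat and stroma, 5 of 5 were in the table and 4 of 5 were read in all 7 libraries, with sums of 28979 to 69613 rpm in HFD and 20811 to 42460 rpm in HFD+Ni; miR-193b-3p was at 0 in 4 libraries. Both endothelial markers were read in all libraries, with sums of 20518 to 32381 rpm in HFD and 12979 to 18851 rpm in HFD+Ni, so that these groups did not overlap. Of 6 blood cell markers 5 were in the table, with 2999 to 4591 rpm in HFD and 1641 to 3292 rpm in HFD+Ni. Only 2 of the blood cell markers were read in all 7 libraries. miR-144-3p was read in HFD replicate 2 alone, and miR-142a-3p and miR-451a were also at 0 in HFD+Ni replicate 1. Striated muscle markers (4 of 4) summed to 4300 and 4025 rpm in HFD replicates 2 and 4 and to 762 to 1156 rpm elsewhere, with miR-206-3p at 0 in the other 5 libraries. Epithelial markers (6 of 6) summed to 45146 rpm in HFD+Ni replicate 1 and to 4813 to 13605 rpm elsewhere. Testis and sperm markers (7 of 7) summed to 596 to 1077 rpm in HFD and 1200 to 2258 rpm in HFD+Ni. In these sums the groups did not overlap either, with HFD+Ni the higher. Only 2 of the 7 were read in all 7 libraries. The largest were miR-34c-5p and miR-34b-5p, with means of 762 and 294 rpm over the 7 libraries. miR-465a-5p was at 0 in 6 libraries, and miR-470-5p, miR-741-3p, miR-871-3p and miR-449a-5p were each at 0 in some. The part of these tissues in the results below was not tested.

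High-numbered miRNAs made up much of the table and almost none of the reads. They held 3216 of all reads in the 7 libraries, or 0.193%. In HFD replicates 1 to 4 their share was 0.281%, 0.149%, 0.230% and 0.270%, a mean of 0.232% ± 0.0599 (SD, n = 4). In HFD+Ni replicates 1 to 3 it was 0.429%, 0.203% and 0.328%, a mean of 0.320% ± 0.113 (SD, n = 3). The groups overlapped, since HFD+Ni replicate 2 lay below 3 of the 4 HFD libraries. The share was lowest in the deepest library, where its 95% Wilson interval of 0.142% to 0.156% lay below those of all other libraries, and highest in the shallowest, with an interval of 0.377% to 0.488%. These intervals cover counting error only. Reads of like sequences may be listed under more than 1 miRNA, among the members and in the totals. miR-3102-3p and miR-3102-3p.2-3p, for example, had equal reads in every library, and miR-199a-5p and miR-199b-5p had the same mean level.

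Most members were seen once or a few times. A single read in a single library was all there was of 141 of the 320 (44.1%), and 231 (72.2%) had at most 3 reads over all 7 libraries. Of the other miRNAs 7.20% rested on 1 read. The median member had 2 reads and a mean level of 1.02 rpm, against 25 reads and 15.5 rpm for the other miRNAs. Reads in only 1 library were found for 225 members (70.3%), reads in 2 to 4 libraries for 43, 19 and 8, in 6 libraries for 12 and in all 7 for 13 (4.06%). Among the other miRNAs 23.6% were read in 1 library and 32.2% in all 7. HFD replicate 2 alone gave 148 of the single-library members, 98 of them with 1 read and none with more than the 6 reads of miR-1899. A further 77 members were read only in 1 of the shallower libraries, and 85 had no read in HFD replicate 2. Of the 118 other miRNAs read in 1 library, 96 were likewise read only in HFD replicate 2.

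**Figure D1:**
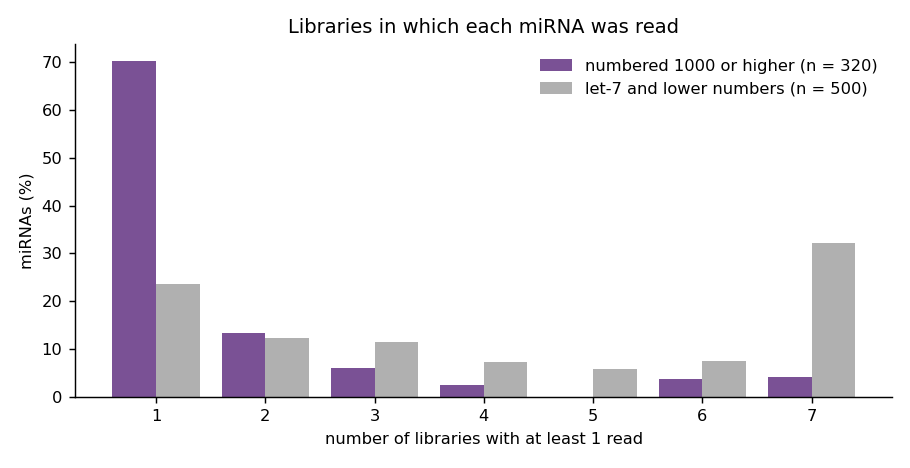
Share of miRNAs (%, y axis) by the number of libraries with at least 1 read (x axis), for the 320 high-numbered miRNAs (purple) and the other 500 (grey). Of the high-numbered ones 70.3% were read in 1 library and 4.06% in all 7, against 23.6% and 32.2% of the others.

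The number of members read per library was highest in the deepest library. There were 42, 235, 62 and 45 in HFD replicates 1 to 4 and 42, 69 and 68 in HFD+Ni replicates 1 to 3. Of all miRNAs read they made up 33.1% in HFD replicate 2 and, elsewhere, 14.8% to 18.4%. After the libraries were thinned to 53626 reads each, the expected number was 36.2, 35.98, 45.8 and 39.3 in HFD and 42.0, 43.3 and 49.7 in HFD+Ni. HFD replicate 2 was then the lowest of the 7, next to HFD replicate 1. The group means of 39.3 ± 4.59 (SD, n = 4) and 45.0 ± 4.09 (SD, n = 3) lay somewhat more than 1 SD apart, with overlapping ranges.

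**Figure D2:**
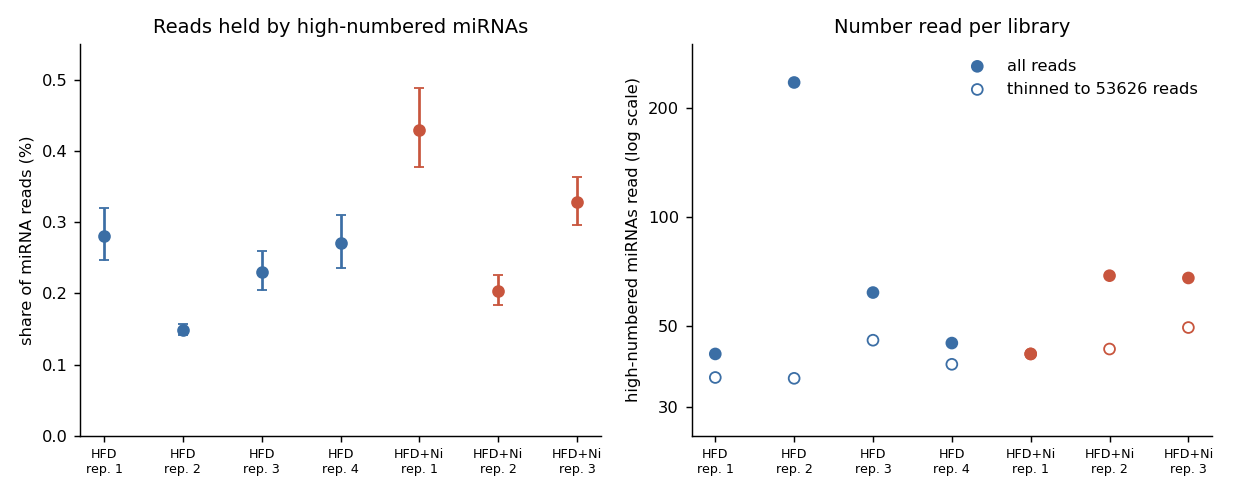
Left, share of miRNA reads (%) held by the high-numbered miRNAs in each library, with 95% Wilson intervals; right, how many of them were read (log scale), with all reads (filled) and after thinning to 53626 reads (open). HFD libraries are blue and HFD+Ni libraries red. HFD replicate 2 had the lowest share, 0.149%, and the most miRNAs read, 235, which thinning reduced to 35.98.

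By number, the 49 members below 2000 held 26.6% of the summed level, the 55 numbered from 3000 held 35.7% and the 28 numbered from 5000 held 15.5%. The 98 members numbered from 7000, the largest band, held 5.54%, and 52 of them were read only in HFD replicate 2, as were 46.25% of all members. The bands of 3000 and 5000 were led by miR-3473b and miR-5099, and that of 1000 by miR-1981-5p. The 5p arm gave 131 members and the 3p arm 109, while 80 carried no arm suffix. For 35 hairpins both arms were in the table, with more reads on the 5p arm in 13, on the 3p arm in 10 and equal reads in 12. On either side of the limit of 1000, miR-935 had 6 reads in 2 libraries and miR-1187 had 2 reads in 1 library.

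Few members were abundant, and none reached 1000 rpm. A mean of at least 50 rpm was reached by 14 members (4.38%, against 37.4% of the other miRNAs) and 100 rpm by 4. The most abundant, miR-3473b, ranked 103 among all 820 miRNAs with a mean of 326 rpm over the 7 libraries. The 3 most abundant held 31.9% of the summed level of all members, and the first 12 held 58.6%.

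The miR-3473 miRNAs led the members by level, and all 3 abundant ones were lowest in HFD replicate 2. miR-3473b was at 322, 44.5, 289 and 428 rpm in HFD replicates 1 to 4 and at 466, 210 and 520 rpm in HFD+Ni replicates 1 to 3. HFD replicate 2 was the lowest library by far, and the groups overlapped. miR-3473e, with the same seed, was at 210, 26.5, 187 and 299 rpm and at 429, 114 and 325 rpm. miR-3473f, with another seed, was at 86.6, 10.4, 59.6 and 64.9 rpm and at 74.6, 73.9 and 121 rpm. The level of miR-3473e was 0.541 to 0.920 times that of miR-3473b within a library, and since their first 18 bases are alike, reads that end early cannot be assigned to 1 of them. The log2 fold change of HFD+Ni over HFD was 0.85 (SE 0.77) for miR-3473b, 0.91 (SE 0.87) for miR-3473e and 0.98 (SE 0.98) for miR-3473f, each with a limma adjusted p of 0.830. Without HFD replicate 2 alone these were 0.12, 0.14 and 0.33. Without the deepest and the shallowest library the direction turned for miR-3473b (-0.046) and miR-3473e (-0.24).

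These hairpins lie in or beside unrelated genes. miR-3473b is annotated at chr10:41670774-41670793 on the plus strand, opposite to Ccdc162, miR-3473e at chr5:31667296-31667316 on the minus strand in an intron of Rbks, and miR-3473f at chr1:106546536-106546555 on the minus strand in an intron of Bcl2. The whole mature sequence of miR-3473b also stands in the annotated transcripts of 344 genes that are not miRNA genes, and that of miR-3470b (chr16:44013885-44013905, plus strand, opposite to Gramd1c) in those of 546. Of the 279 members with a sequence 3 were found in at least 10 such genes (the third is miR-3473a), against 1 of 417 other miRNAs, and these 3 held 17.6% of the level of the members with a sequence. Summed, they were at 408, 72.9, 332 and 480 rpm in HFD and at 578, 244 and 557 rpm in HFD+Ni. miR-3473e is not among the 3, since only matches of the whole sequence count, although its first 18 bases are those of miR-3473b. miR-3470b itself was at 86.6, 27.5, 34.1 and 51.9 rpm and at 112, 17.1 and 37.2 rpm, with overlapping groups and a log2 fold change of -0.12 (SE 1.05, limma adjusted p = 0.996), a direction that turned in DESeq2 (0.074) and after thinning (0.077).

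The miR-3473b reads themselves varied little while depth varied 19.7-fold. Their number was 26, 47, 34 and 33 in HFD replicates 1 to 4 and 25, 37 and 56 in HFD+Ni replicates 1 to 3. miR-3473e had 17 to 35 reads, miR-3154 had 3 to 10, and miR-5099 had 5 to 45, of which HFD replicate 2 held 41. Of the 13 members read in all 7 libraries 6 had their lowest level in HFD replicate 2, and 7 had their highest in HFD+Ni replicate 1, the shallowest. The same was true of 14 and 38 of the 161 other miRNAs read in all libraries. The 6 are miR-3473b, miR-3473e, miR-3473f, miR-5099, miR-6538 and miR-3154. The part of library depth in these levels was not tested.

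miR-5099 was the second most abundant. It was at 557, 38.8, 128 and 64.9 rpm in HFD and at 727, 227 and 409 rpm in HFD+Ni. HFD replicate 1 lay among the HFD+Ni libraries and the other 3 below them. The log2 fold change of 1.80 (SE 0.86) had the smallest p of all members in limma (unadjusted p = 0.0590, adjusted p = 0.830). It ranged from 1.28 to 2.55 as each library was left out. It was 1.08 in edgeR and 0.87 without the deepest and the shallowest library. In a single random draw of thinned reads it was 3.46, a value that another draw may change. miR-5099 passed unadjusted p under 0.05 without HFD replicate 1, without HFD+Ni replicate 2, in that thinned draw and with no filter on low levels.

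Another class of members overlaps guide RNAs. GENCODE M21 places the hairpins of 10 of the 279 members over a scaRNA or snoRNA gene, against 1 of 417 for the other miRNAs, and these 10 held 13.3% of the level of the members with a sequence. miR-1843b (5p at chr1:159340362-159340382, plus strand) lies in Scarna3a within an intron of Cop1, and miR-1843a (5p at chr12:80391654-80391674, minus strand) in Scarna3b within Dcaf5. miR-1839-5p (chr7:81529919-81529940, plus strand) lies in a gene that GENCODE itself types as a scaRNA, inside the long noncoding RNA 2900076A07Rik. Such RNAs guide the chemical modification of spliceosomal RNAs. Summed, the 10 members were at 198, 458, 324 and 104 rpm in HFD and at 448, 267 and 223 rpm in HFD+Ni, so that HFD replicate 2 was here the highest library. Most of its sum came from miR-1839-5p, miR-1843a-5p and miR-1843b-5p, of which the last 2 list the same 111 reads there, while miR-1843b-3p was second lowest in that library. The group means, 271 ± 154 rpm (SD, n = 4) and 313 ± 119 rpm (SD, n = 3), differed by less than the spread.

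Within this class miR-1839-5p varied most. Its reads numbered 1, 200, 11 and 1 in HFD and 0, 13 and 9 in HFD+Ni, which is 12.4, 189, 93.7 and 13.0 rpm and 0, 73.9 and 83.6 rpm. A count of 0 in HFD+Ni replicate 1 allows up to 55.9 rpm at its depth. On the log2 scale HFD+Ni differed from HFD by -1.21 (SE 1.74, limma adjusted p = 0.886) with HFD+Ni replicate 1 and 0.89 without that library. miR-1843b-5p was at 61.9, 105, 51.1 and 13.0 rpm in HFD and at 168, 62.5 and 65.0 rpm in HFD+Ni. miR-1843a-5p had the same reads as miR-1843b-5p in 5 of the 7 libraries, so that reads of the shared 20 bases cannot be told apart and both values are uncertain. The log2 fold change was 0.93 (SE 0.98) for miR-1843b-5p and 0.84 (SE 1.04) for miR-1843a-5p. As each library was left out these ranged from 0.34 to 1.32 and from 0.25 to 1.32, lowest without HFD replicate 4 and without HFD+Ni replicate 1.

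The opposite arms were scarcer. miR-1843b-3p was at 49.5, 18.9, 42.6 and 51.9 rpm in HFD and at 74.6, 34.1 and 18.6 rpm in HFD+Ni. Its log2 fold change was -0.065 (SE 1.06, limma adjusted p = 0.996), and the sign turned in DESeq2 (0.028). miR-1843a-3p was at 24.8, 27.5, 51.1 and 13.0 rpm in HFD and at 0, 5.69 and 9.29 rpm in HFD+Ni, so that the groups did not overlap and HFD+Ni was the lower. Behind the HFD+Ni values stand 0, 1 and 1 reads, and behind HFD replicate 4 stands 1 read. Its log2 fold change was -2.72 (SE 1.496, limma adjusted p = 0.830), with -1.70 when HFD+Ni replicate 1 was left out and -1.10 after thinning.

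miR-1981-5p was the most abundant member that fills an intron. A hairpin whose ends lie within 5 bases of both ends of an annotated intron, as in a mirtron, was found for 13 of the 279 members and for 2 of the 417 other miRNAs. miR-1981-5p (chr1:184822465-184822488, minus strand, in Marc2) was at 111, 189, 76.6 and 195 rpm in HFD and at 131, 22.7 and 269 rpm in HFD+Ni. The HFD+Ni libraries thus hold both the lowest and the highest value. With 200 reads in HFD replicate 2 and 273 in all, it had more reads than any other member. The arm had a log2 fold change of -0.51 (SE 0.89, limma adjusted p = 0.913) which turned to 0.49 without HFD+Ni replicate 2. The opposite arm, miR-1981-3p, was at 0 in 4 libraries. The summed level of the 13 mirtron-like members was 159 ± 53.9 rpm (SD, n = 4) without and 175 ± 134 rpm (SD, n = 3) with nicotine.

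miR-1198-5p was the most abundant member whose groups did not overlap. It lies at chrX:7807142-7807163 on the plus strand in an intron of Gripap1, and was at 148, 63.5, 153 and 77.9 rpm in HFD and at 37.3, 62.5 and 46.5 rpm in HFD+Ni. The gap between the groups is that between HFD replicate 2 at 63.5 rpm (67 reads) and HFD+Ni replicate 2 at 62.5 rpm (11 reads). Its log2 fold change was -1.10 (SE 0.81, limma adjusted p = 0.830) and ranged from -1.33 to -0.91 as each library was left out. miR-1195 (chr17:70860558-70860580, minus strand, opposite to Gm9320) was the only member with HFD+Ni above HFD in all libraries. It was at 0, 6.63, 42.6 and 13.0 rpm in HFD and at 55.9, 45.5 and 55.8 rpm in HFD+Ni, from 0 to 8 reads per library. This gave a log2 fold change of 2.69 (SE 1.52, limma adjusted p = 0.830), which was 1.67 without HFD replicate 1 and 1.68 in edgeR.

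Among all 387 miRNAs whose mean level reached 5 rpm, HFD+Ni lay above HFD without overlap in 2.84% and below it in 2.33%. Of the 62 members at that level 1 (miR-1195) lay above and 2 (miR-1198-5p and miR-1843a-3p) below, which is close to those shares.

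The remaining abundant members overlapped between the groups. miR-3970 was at 148, 98.5, 102 and 26.0 rpm in HFD and at 93.2, 34.1 and 74.3 rpm in HFD+Ni. Its log2 fold change was -0.35 (SE 0.91), and 0.071 without HFD+Ni replicate 2. miR-6538 (chr12:26414970-26414988, minus strand, in an intron of Rnf144a) was at 37.1, 1.89, 51.1 and 104 rpm and at 280, 45.5 and 27.9 rpm, and of the HFD+Ni libraries replicate 1 alone lay above the HFD range. miR-3154 (chr2:32318317-32318338, plus strand, opposite to Dnm1) was at 49.5, 2.84, 34.1 and 130 rpm and at 74.6, 39.8 and 55.8 rpm. The log2 fold changes of these last members were 1.37 (SE 1.40) and 0.87 (SE 1.28), and without HFD replicate 2 they were 0.285 and -0.13.

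**Figure D3:**
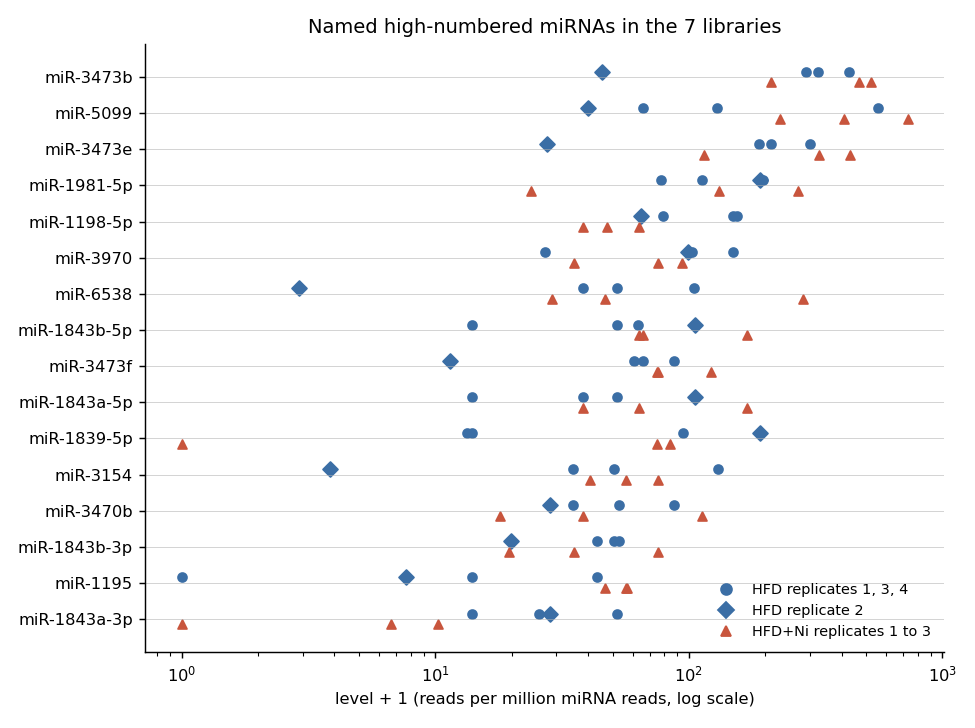
Level plus 1 (rpm, log scale) of the 16 members named by rule, 1 point per library: HFD replicates 1, 3 and 4 as blue circles, HFD replicate 2 as a blue diamond, HFD+Ni as red triangles. The diamond is the lowest point for miR-3473b (44.5 rpm) and miR-6538 (1.89 rpm) and the highest for miR-1839-5p (189 rpm).

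**Figure D4:**
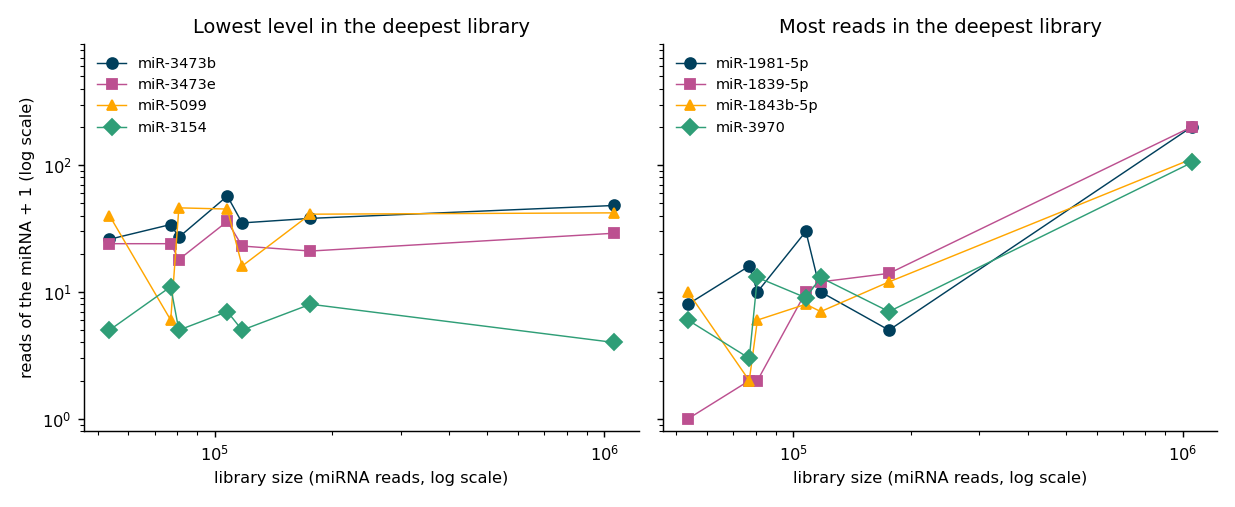
Reads plus 1 (log scale) of 8 members against library size (miRNA reads, log scale), each point a library. Left, miR-3473b, miR-3473e, miR-5099 and miR-3154, which had their lowest level in the deepest library; right, miR-1981-5p, miR-1839-5p, miR-1843b-5p and miR-3970, which had their most reads there. miR-3473b had 25 to 56 reads throughout, and miR-1839-5p had 0 to 200.

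No member differed between HFD+Ni and HFD past the threshold. Of the 320 members 62 passed the filter of 5 rpm on the mean level, with a median of 13.5 reads over all libraries, and 49 of them were unread in at least 1 library. In limma 0 of the 62 had an adjusted p under 0.05, as had 0% of all 387 tested miRNAs. Before adjustment the threshold was passed by 0 of the 62 and by 2.84% of all tested, of which 1.55% were higher and 1.29% lower in HFD+Ni. The log2 fold change was above 0 for 31 of the 62 and below 0 for 31, with a median of 0.15, against 52.7% above 0 and a median of 0.04 over all tested miRNAs. The median SE was 1.67 for the members and 1.49 for the other tested miRNAs.

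edgeR, on the whole reads recovered from the rpm, called 0 members at adjusted p under 0.05 (lowest 0.616) and 3 at unadjusted p under 0.05, where 7.24% of all tested miRNAs were. DESeq2 called 0 members with adjustment and 0 without it, where 0.258% and 4.91% of all tested miRNAs were called. The 3 members in edgeR, named after their values were seen, are scarce and rest on few libraries. miR-7667-5p, in an intron of Tbc1d22b, had 0, 2, 0 and 0 reads in HFD and 4, 7 and 0 in HFD+Ni (edgeR adjusted p = 0.616). miR-12202-5p, in an intron of Zfp628, had 6 reads in HFD+Ni replicate 1 and 1 read in HFD replicate 2, and miR-6963-5p, in an intron of Itga5, had 5 reads in HFD+Ni replicate 1 alone. The authors' deposited table gives miR-7667-5p an unadjusted p of 0.00850 and miR-12202-5p one of 0.0495, the only 2 members under 0.05 in the authors' deposited table, with an FDR of 0.775 and 1. In the same deposited table by the authors 3.17% of all 820 miRNAs were under 0.05. The authors' separate deposited list of 15 changed miRNAs holds 0 members. That list gives no values for HFD replicate 2 and has 1 column that matches no label, so it may rest on other libraries than those compared here.

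**Figure D5:**
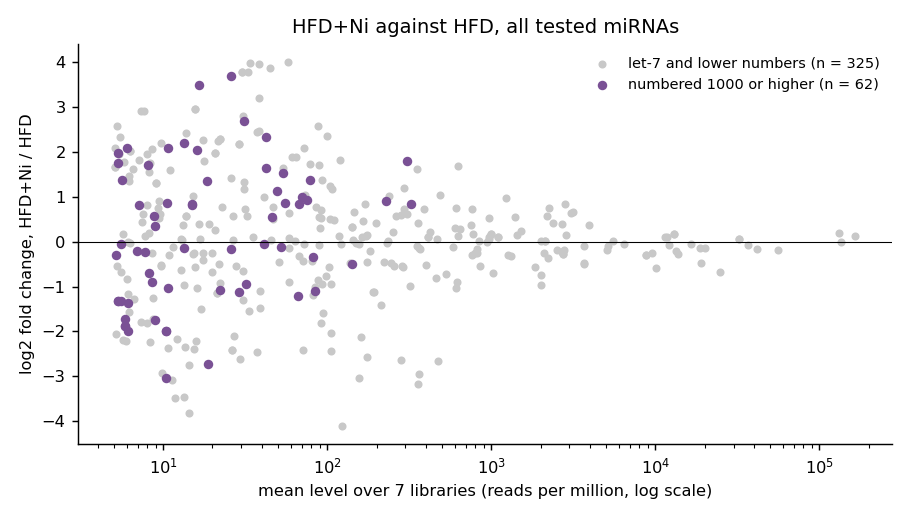
Log2 fold change of HFD+Ni over HFD (y axis) against the mean level over the 7 libraries (rpm, log scale), for the 62 tested high-numbered miRNAs (purple) and the 325 other tested miRNAs (grey). The high-numbered miRNAs sit at the low end of the level axis, up to 326 rpm, with 31 points above and 31 below 0.

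In sequence the members were richer in G and C than the other miRNAs. Their median content was 57.1% (quartiles 51.0% and 63.6%), against 47.6% (quartiles 40.9% and 54.5%), and a content of at least 70% was found for 26 of 279 members (9.32%) and 8 of 417 others (1.92%). The median length was 22 bases in both. Members at a mean of at least 5 rpm had a median content of 60.4%. The 26 members of at least 70% summed to 111, 28.4, 170 and 182 rpm in HFD and to 503.5, 108 and 55.7 rpm in HFD+Ni, with miR-6538 as the largest.

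By position, the hairpins of 142 of the 279 members (50.9%) lay in an intron of a gene on the same strand, 87 (31.2%) overlapped an exon, 18 lay only opposite to a gene and 32 between genes. For the other miRNAs 39.1% were intronic and 29.3% lay between genes. Only 3 of the 279 overlapped another miRNA gene, against 8.39% of the others. A seed in common with let-7 or a lower-numbered miRNA was found for 24 members (8.60%). Among the others it was 36.7%, but that is sharing within their own set, so these percentages are unlike measures. The 24 held 3.23% of the level of the members with a sequence, and miR-6240, which has the seed of miR-330-3p, was the only one of them that reached 5 rpm. Apart from miR-3473b with miR-3473e, no seed shared between members summed to more than 6.93 rpm.

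A hand-made list of 12 numbers that are also used for a human miRNA is not complete, and miR-3154, for example, is not on it. Of these 12 numbers 8 were in the table, as 10 members, which summed to 84.6 ± 34.9 rpm (SD, n = 4) without and 56.3 ± 25.5 rpm (SD, n = 3) with nicotine. The largest on that list was miR-1249-3p, at 24.8, 15.2, 17.0 and 64.9 rpm in HFD and at 0, 45.5 and 37.2 rpm in HFD+Ni. A hand-made list of 7 numbers from the imprinted Dlk1-Dio3 cluster may likewise be incomplete. Of these 7 numbers 2 were in the table, as miR-1247-5p and both arms of miR-1193. miR-1247-5p was at 49.5, 3.79, 34.1 and 13.0 rpm in HFD and at 37.3, 17.1 and 0 rpm in HFD+Ni, from 0 to 4 reads per library, and both miR-1193 arms were read only in HFD replicate 2.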

How the data were processed

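The members and lists here were chosen with earlier results of these data known. Although named TPM, the deposited values are rpm: each column the authors deposited sums to 1000000. Whole reads were recovered from it, with 100% of values within 0.1 read. The authors' deposited p-value, FDR and log2 fold change were copied and not recomputed. Per the submitters' processing notes edgeR and GRCm38 (mm10) were used; for the aligner, counter, annotation and versions: not given in the sources used here. A further 1 per-sample column of the deposited list, which matches no label, was not used.

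The groups were tested with limma 3.58.1 (R 4.3.3), using log2(rpm + 1) of all 387 miRNAs that averaged 5 rpm or more, with a mean-variance trend, two-sided, Benjamini-Hochberg adjusted. edgeR 4.0.16 and DESeq2 1.42.0 on the recovered reads, and the other alternatives, are given at the end. The fits were tested on simulated data. A fold change depends on the pseudocount of 1 where reads are few. Libraries held 53626 to 1055902 reads, where 1 read is 18.6 and 0.947 rpm. Expected numbers after thinning are hypergeometric. Fold changes and calls after thinning rest instead on a single random draw of reads per library, and another draw may give other values. miRNAs were matched by name to RefSeq (2 members at 2 positions each), hairpin positions to GENCODE M21 on GRCm38, and mature sequences to its transcripts.

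Named members are the 12 most abundant, those read in all 7 libraries, those with unadjusted p under 0.05, those in the authors' list and those whose groups do not overlap; any other was chosen after its values were seen.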

Additional observations from a re-analysis of the deposited data

Results flagged for a closer look

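HFD replicate 2 stood apart from the other 3 HFD libraries in the number of high-numbered miRNAs read, with 235 against 42 to 62. It was the only one of 19 quantities examined in the 4 HFD libraries in which 1 library lay beyond the usual limit for an outlier. Its depth of 1055902 reads moves with that number, and after thinning to 53626 reads it held 35.98. Such a limit marks about 1 in 20 groups by chance.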

How the results depend on the processing

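No member was called at adjusted p under 0.05 under any of the 18 alternatives. At unadjusted p under 0.05 limma called 0 of 62 members and 11 of all 387 tested miRNAs. The count was 1 of 62 with a pseudocount of 5 (16 of all 387) and 1 of 320 with no filter (20 of all 820). It was 3 of 62 in edgeR (28 of all 387) and 1 of 74 in a single random draw of thinned reads (12 of all 409). Without the deepest and the shallowest library it was 3 of 69 (29 of all 402). With 1 library left out it was 0 to 4, where 6 to 24 of all tested miRNAs passed. The 4 came without HFD replicate 1 (4 of 64 members, 14 of all 386). The cause was not tested. The number read per library, 96.0 in HFD and 59.7 in HFD+Ni, was 39.3 in HFD after thinning (45.0 in HFD+Ni), and 34.3 and 30 at a minimum of 3 reads. With 1 library left out it was 49.7 (without HFD replicate 2) to 114 in HFD and 55.0 to 68.5 in HFD+Ni. The share of reads moved by less than 1 SD in every alternative. No pairing by replicate number was evident. Same-numbered libraries correlated at 0.02, 0.19 and -0.10 in their deviations from the group means, where 0.19 was the highest between any HFD and HFD+Ni library. Not every library correlated best with its own number, and correlations this weak cannot show whether the samples were paired. With the replicate block 0 members were called, as without it, and the sign of miR-1843b-3p turned (0.081), as it did in the same 6 libraries with no block (0.081).

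Of the 16 members named by rule 7 kept their direction throughout. Without the deepest and the shallowest library the sign turned for miR-3473b (-0.046), miR-3473e (-0.24), miR-6538 (-0.69), miR-1839-5p (1.61) and miR-3154 (-0.35). It turned for miR-3470b in DESeq2 (0.074) and after thinning (0.077), and for miR-1843b-3p in DESeq2 (0.028). With 1 library left out the range spanned 0 for miR-1981-5p (-1.26 to 0.49), miR-3970 (-0.87 to 0.071), miR-1839-5p (-2.31 to 0.89), miR-3154 (-0.13 to 1.56), miR-3470b (-0.82 to 0.50) and miR-1843b-3p (-0.57 to 0.40). At these depths a level under 55.9 rpm can be missed in the shallowest library.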
